A study of Macaca mulatta with 10 samples.

Results

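The costimulatory receptors CD28, ICOS, CD27, TNFRSF4, TNFRSF9, CD2 and CD5, together with CD40LG, the T cell ligand of CD40, were described in sorted Tr1 cells of rhesus macaques. These 8 genes were taken by symbol from the 26484 genes of the deposited count table. Tr1 cells are regulatory CD4+ T cells, sorted here as CD4+ cells carrying CD49b and LAG-3, and none of the 8 genes was part of that gate. One library was made per monkey, from 5 monkeys of Cohort B and 5 of Cohort C. All 10 monkeys had been made diabetic with streptozotocin and had received islets from donors matched for one DRB allele under a short course of an antagonistic anti-CD40 antibody, rapamycin, soluble TNF receptor and anti-IL-6 receptor antibody. Cohort C monkeys also received infusions of apoptotic donor leukocytes (ADLs), and Cohort B monkeys did not. The labels place blood collection at sacrifice, on day 365 in Cohort C and at rejection in Cohort B. The study elsewhere lists rejection only for the Cohort B monkeys 14HP26, 14HP31 and 15CP6, not for 13EP12 and 13EP8, and states that Cohort C monkey 15CP1 was kept beyond the planned end. The cells had been frozen, thawed and rested overnight before sorting.

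A T cell that recognizes antigen through its receptor responds fully only when costimulatory receptors are engaged as well. CD28 and ICOS belong to the immunoglobulin superfamily and bind CD80 and CD86, or ICOSLG, on antigen-presenting cells, whereas CD27, TNFRSF4 (OX40) and TNFRSF9 (4-1BB) belong to the TNF receptor superfamily and signal through TRAF adaptors to NF-κB. CD40LG runs the other way: activated CD4+ T cells display it to CD40 on B cells, dendritic cells and monocytes. The anti-CD40 antibody given to both cohorts blocks that contact. It was given only around the time of transplant, and the cells described here were collected at sacrifice. CD2 is an adhesion receptor for CD58 and CD48, and CD5 is a scavenger-type receptor that tunes signalling of the T cell receptor.

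Library totals spanned 6076 to 1392157 counts in Cohort B and 66485 to 5895609 counts in Cohort C. At least 1000000 counts were held by 4 libraries, 13EP12 and 13EP8 from Cohort B with 13EP5 and 15CP1 from Cohort C. They are called the 4 deep libraries here, a limit chosen after the counts had been seen, and they held 87.1% of all counts. In the library of Cohort C monkey 14HP33, 87.0% of the 968423 counts lay on the MTRNR2L genes, a family of near-identical copies. Of the sort markers CD4, ITGA2 (CD49b) and LAG3, all 3 were detected in 13EP12, 13EP5 and 15CP1, and none in 14HP26, 14HP31, 14HP33 and 15CP4. The 8 T cell markers together had 1300 to 6554 counts in the deep libraries and 0 to 374 in the other 6, and 8 housekeeping genes had 13226 to 68814 and 2 to 2491. Markers of other cells were present too: the 9 monocyte markers summed to 448 to 2679 counts in the deep libraries and 0 to 70 in the others, and the 7 B cell markers to 65 to 479 and 0 to 12. The 7 CD8 and NK cell markers summed to 126 to 562 and 0 to 68, and the 6 dendritic cell markers to 19 to 125 and 0 to 16. Platelet markers reached 502 counts in 13EP5, with GP9 at 0 in all 10 libraries. Erythroid markers had 0 counts in the deep libraries, but 188 in 15CP6, 93 in 14HP33 and 6 in 14HP26. In 14HP24 the monocyte markers had 70 counts, beside 42 on the T cell markers. The part of these other cells in the values below was not tested. In bulk RNA, fewer cells of a type and less RNA per cell cannot be told apart.

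Of the 8 genes, 6 were present in all 4 deep libraries, where CD28, CD2 and CD40LG had overlapping levels in both cohorts with fitted log2 fold changes from -0.20 to 0.00. The deep libraries held 98.7% of the 8077 counts on the 8 genes. Of the 80 values, 45 were 0, namely 25 of the 40 in Cohort B and 20 of the 40 in Cohort C. The other 6 libraries gave 40 zeros among their 48 values, and 6 values above 3 counts, which was taken as the floor of a library.

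**Figure D1:**
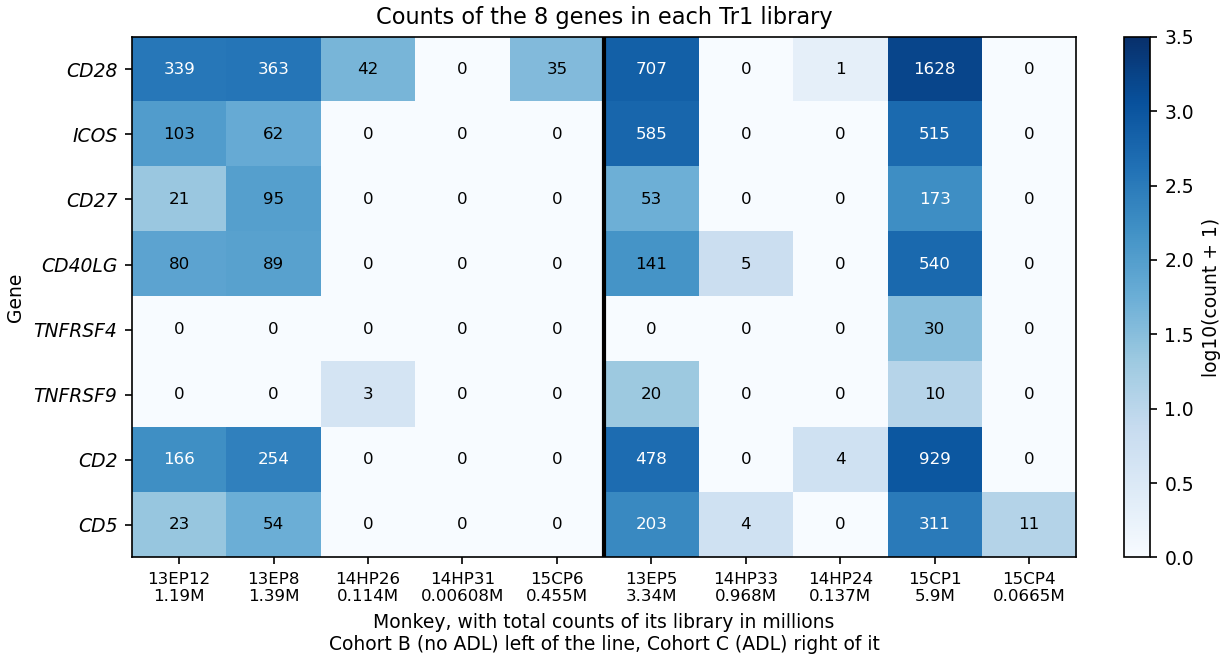
Deposited counts of the 8 genes (rows) in the 10 libraries (columns, with the total counts under each name), shaded by log10(count + 1). The line parts Cohort B from Cohort C. Counts gather in 13EP12, 13EP8, 13EP5 and 15CP1, while 40 of the 48 values in the other 6 libraries are 0.

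None of the 8 genes was called between the cohorts. With all 10 libraries in edgeR's quasi-likelihood test, 0 of the 8 passed an unadjusted p under 0.01 with a 1.5-fold change, where 6.43% of the 14168 genes tested did so (1.07% higher and 5.36% lower in Cohort C), and 1 of the 8 (TNFRSF4) had an unadjusted p under 0.05, where 20.6% of all genes did. At a Benjamini-Hochberg adjusted p under 0.05, edgeR called 0 of the 8 and 0 of the 14168, with 2923 genes at an unadjusted p under 0.05. DESeq2 called 0 of the 8 by either rule, where it called 22 of the 14168 genes by the first and 2 by the second. None of the 8 had an unadjusted DESeq2 p under 0.05, where 190 of all genes did. The stricter filter filterByExpr of edgeR left 3414 genes, 3 of the 8 among them. Of these 3414 genes, edgeR called 10 by the first rule and gave 59 an unadjusted p under 0.05. The shares over all genes thus depended on the filter and the test. In two-sided exact permutation tests of log2(CPM + 1) over every assignment of the libraries, where the smallest possible p is 0.00794, the 8 genes had p from 0.0794 to 1 and an adjusted p of 1 each, and 0.24% of all genes had an unadjusted p under 0.05. CPM, counts per 1000000, are taken of a library's TMM-scaled total.

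CD28, the receptor of CD80 and CD86, was found in 7 libraries, more than any other of the 8 genes. It was detected in 4 of 5 Cohort B and 3 of 5 Cohort C monkeys. In Cohort B it had 339 counts in 13EP12, 363 in 13EP8, 42 in 14HP26, 35 in 15CP6 and 0 in 14HP31. In Cohort C it had 707 counts in 13EP5, 1628 in 15CP1, 1 in 14HP24 and 0 in 14HP33 and 15CP4. The cohorts overlapped, with high and low monkeys in each.

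Scaled to depth, CD28 was the most even of the 8 genes apart from CD2. It stood at 293 CPM in 13EP12, 277 in 13EP8, 220 in 13EP5 and 337 in 15CP1, a mean of 282 ± 48.4 CPM (SD, n = 4), and the 42 counts of 14HP26 correspond to 246 CPM. Per 100 counts on the CD3 chain genes (CD3D, CD3E, CD3G and CD247), CD28 had 45.5 and 54.3 counts in the Cohort B deep libraries and 43.2 and 49.8 in those of Cohort C. The spread across these 4 monkeys was small beside the gap to 15CP6, where CD28 had 77.2 CPM, or 9.80 counts per 100 CD3 chain counts. The log2 fold change of Cohort C over Cohort B was -0.67 (standard error 1.95, edgeR adjusted p = 0.9998) over all libraries and -0.20 (standard error 0.47, edgeR adjusted p = 0.948) over the 4 deep ones. It was negative with each library left out in turn, from -1.66 to -0.13. The mean log2(CPM + 1) was 6.11 ± 3.51 in Cohort B and 3.79 ± 4.09 in Cohort C (SD, n = 5, exact permutation test, p = 0.429).

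ICOS, which is induced on activated T cells and binds ICOSLG, was seen in the deep libraries alone. It had 103 counts in 13EP12 and 62 in 13EP8 of Cohort B, 585 in 13EP5 and 515 in 15CP1 of Cohort C, and 0 in the remaining 6 monkeys. This amounts to 89.1 and 47.3 CPM in Cohort B and 182 and 107 CPM in Cohort C. Both Cohort C values lay above both Cohort B values. The exact permutation p over these 4 libraries was 0.333, the lowest that 2 monkeys against 2 can give. The log2 fold change was 0.95 (standard error 0.70, edgeR adjusted p = 0.80) over these 4 libraries and 1.03 (standard error 2.06, edgeR adjusted p = 0.9998) over all 10. It rested on 13EP5, and without that monkey the log2 fold change over the remaining 9 libraries was -0.24. Per 100 CD3 chain counts, ICOS had 35.8 counts in 13EP5 but 9.28 to 15.8 in the other 3 deep libraries, among them 15CP1 of the same cohort.

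**Figure D2:**
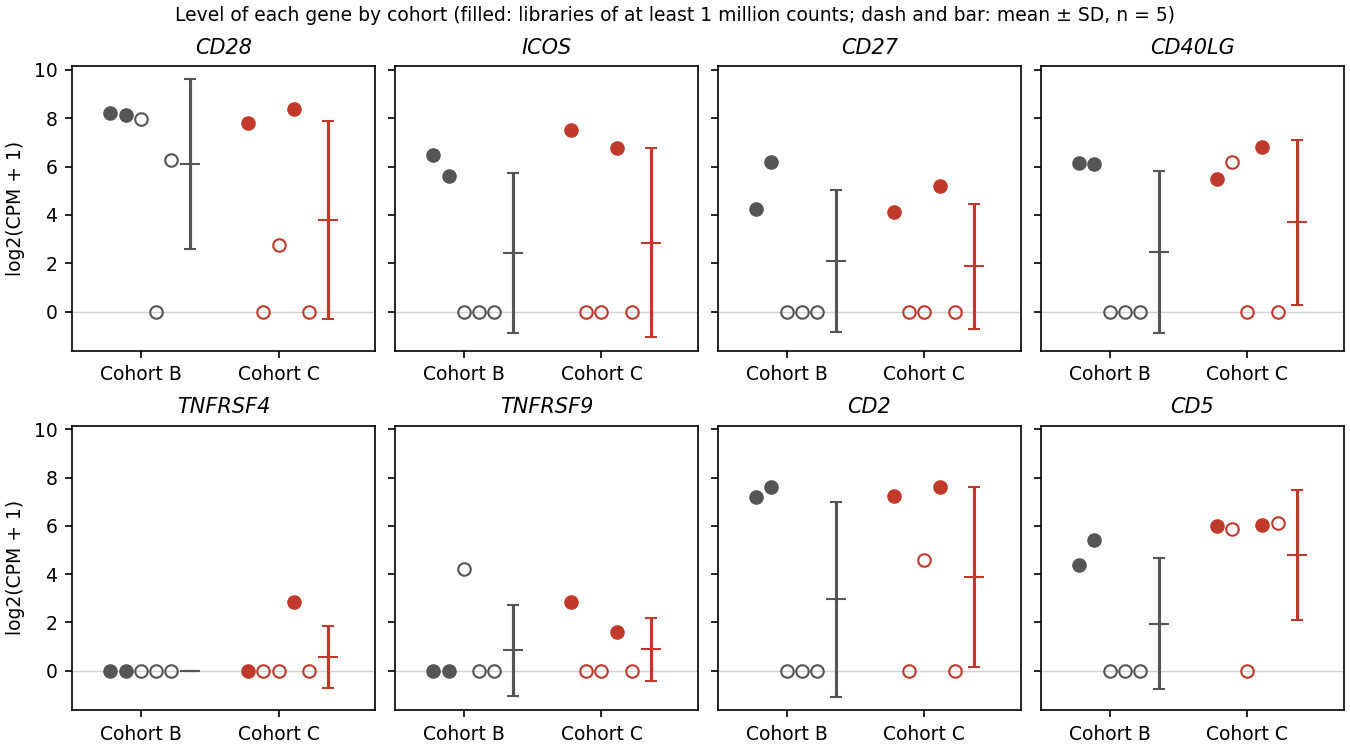
Level of each gene as log2(CPM + 1) by cohort, 1 point per monkey. Filled points are the 4 deep libraries, open points the other 6, and the dash and bar give the mean ± SD (n = 5). In CD28 and CD2 the filled points of both cohorts lie close together, while the open points lie mostly at 0 and widen the bars of both cohorts.

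CD27, the constitutive TNF receptor family member that binds CD70, was low and uneven. It had 21 counts in 13EP12 and 95 in 13EP8 of Cohort B, 53 in 13EP5 and 173 in 15CP1 of Cohort C, and 0 in the other 6. In CPM, 13EP8 stood highest at 72.4, followed by 15CP1 at 35.8, 13EP12 at 18.2 and 13EP5 at 16.5, so the highest and the lowest value came from different cohorts and the cohorts overlapped. The coefficient of variation over these libraries was 72.8%, against 17.2% for CD28. The log2 fold change was -0.78 (standard error 2.06, edgeR adjusted p = 0.9998), and it turned to 0.93 without 13EP8. The antisense gene CD27-AS1 had 6 counts in 13EP12, 5 in 13EP8 and 22 in 15CP1, and since the strand setting of the counting is not given in the sources used here, reads of the pair cannot be told apart.

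TNFRSF4 and TNFRSF9, TNF receptor family members that T cells display after activation, were at or near the limit of detection. TNFRSF4 had 30 counts in Cohort C monkey 15CP1, the deepest library, and 0 in each of the other 9. Over the summed libraries that is 2.88 CPM of unscaled totals in Cohort C, at least 3.03-fold higher than a floor of 3 counts over all of Cohort B would give, with counting error alone in view. Cohort C monkey 13EP5, the next deepest library, also had 0 counts, and 3 counts there would correspond to 0.932 CPM beside the 6.21 CPM of 15CP1. The edgeR quasi-likelihood test gave an unadjusted p of 0.0251 and an adjusted p of 0.171, the exact permutation test p = 1, and without 15CP1 the gene had no count to test.

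TNFRSF9 had 20 counts in 13EP5 and 10 in 15CP1 of Cohort C, 3 in 14HP26 of Cohort B, and 0 in the other 7 libraries. The summed counts, 30 in Cohort C and 3 in Cohort B, gave, relative to the summed totals, a ratio of 3.03 (95% exact interval 0.944 to 15.5, counting error only). The fitted log2 fold change had the opposite sign, -0.64 (standard error 1.90, edgeR adjusted p = 0.9998), with the 3 counts of the shallow library 14HP26 weighing as 17.6 CPM beside 6.22 and 2.07 CPM in Cohort C. Without 14HP26 it was 4.58, against a cohort with no count. A direction for TNFRSF9 therefore could not be given.

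CD40LG was present in both cohorts. In Cohort B it had 80 counts in 13EP12 and 89 in 13EP8, and 0 in 14HP26, 14HP31 and 15CP6. In Cohort C it had 141 counts in 13EP5, 540 in 15CP1 and 5 in 14HP33, and 0 in 14HP24 and 15CP4. The CPM of 13EP12 (69.2) and 13EP8 (67.9) lay between those of 13EP5 (43.8) and 15CP1 (112), so the Cohort C monkeys enclosed those of Cohort B. The log2 fold change over the deep libraries was 0.00 (standard error 0.80, edgeR adjusted p = 0.999), and over all libraries 0.65 (standard error 2.06, edgeR adjusted p = 0.9998). The size over all libraries depended on single libraries and on the scaling. It was -0.0039 without 15CP1, 0.087 without 15CP6, where CD40LG had 0 counts, and 1.06 without 13EP8. With library size only it was -0.050. The 5 counts of 14HP33 weighed as 71.0 CPM, against 5.16 CPM of its unscaled total. CD40, the partner that the antibody bound, had 27 counts in all, 20 of them in 15CP1, and its log2 fold change was -0.50 (standard error 1.66, edgeR adjusted p = 0.9998).

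CD2, the adhesion receptor, had 166 counts in 13EP12 and 254 in 13EP8 of Cohort B and 0 in 14HP26, 14HP31 and 15CP6. In Cohort C it had 478 counts in 13EP5, 929 in 15CP1, 4 in 14HP24 and 0 in 14HP33 and 15CP4. In CPM the deep libraries read 144 and 194 in Cohort B and 149 and 192 in Cohort C, so each cohort held a lower and a higher monkey at nearly matched levels. The coefficient of variation was 16.0%, the lowest of the 8 genes. The log2 fold change was 0.09 (standard error 2.0, edgeR adjusted p = 0.9998) over all libraries and -0.15 (standard error 0.54, edgeR adjusted p = 0.971) over the deep ones. Its sign changed with the library left out, from -0.66 without 15CP1 to 0.86 without 13EP8.

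CD5 was the gene with the smallest permutation p. In Cohort B it had 23 counts in 13EP12, 54 in 13EP8 and 0 in 14HP26, 14HP31 and 15CP6. In Cohort C it had 203 counts in 13EP5, 311 in 15CP1, 11 in 15CP4, 4 in 14HP33 and 0 in 14HP24. It was thus detected in 4 of 5 Cohort C and 2 of 5 Cohort B monkeys, and the 4 Cohort C values, 56.8 to 68.5 CPM, all lay above the 19.9 and 41.2 CPM of 13EP12 and 13EP8. That order depended on the scaling. Per 1000000 unscaled counts, CD5 stood at 4.13 in 14HP33, 52.8 in 15CP1, 60.8 in 13EP5 and 165 in 15CP4, against 19.3 in 13EP12 and 38.8 in 13EP8, so that 14HP33 lay below both.

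The mean log2(CPM + 1) of CD5 was 4.80 ± 2.69 in Cohort C and 1.96 ± 2.70 in Cohort B (SD, n = 5), a difference of 2.84 that did not pass the exact permutation test (p = 0.0794, adjusted over all genes p = 1). With library size only the exact permutation p was 0.206. With single libraries left out, the unadjusted exact permutation p was 0.0397 without Cohort C monkey 14HP24, 0.238 without any one of the other Cohort C monkeys, 0.190 without 14HP26, 14HP31 or 15CP6, and 0.0794 without 13EP12 or 13EP8. The log2 fold change was 1.91 (standard error 2.13, edgeR adjusted p = 0.896), and it was positive with each library left out in turn, from 1.34 to 2.88. Over the deep libraries it was 0.90 (standard error 1.0, edgeR adjusted p = 0.826). In Cohort C, 2 of the values rest on 4 and 11 counts, in libraries without a count on CD4, ITGA2 or LAG3, and per 100 CD3 chain counts the deep libraries read 3.09 and 8.08 in Cohort B and 12.4 and 9.51 in Cohort C.

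**Figure D3:**
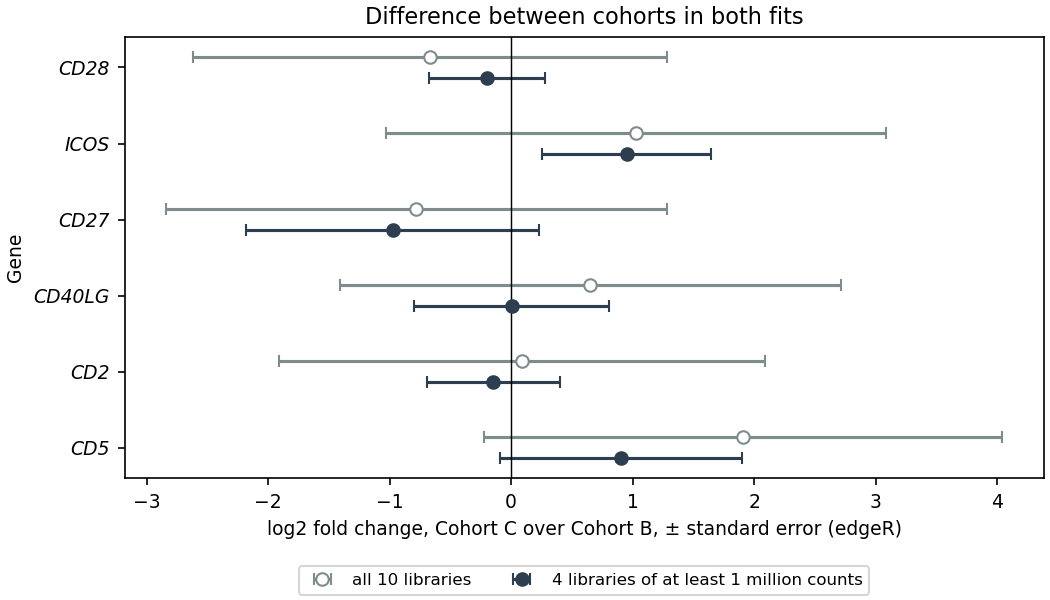
Log2 fold change of Cohort C over Cohort B with its standard error from edgeR, for the 6 genes detected in every deep library. Open points use all 10 libraries, filled points the 4 deep ones. Standard errors run from 1.95 to 2.13 over all libraries and from 0.47 to 1.21 over the deep ones, and no gene was called in either.

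Over the 4 deep libraries, 0 of the 8 genes were called, where 0.881% of the 13274 genes tested were, and 0.00753% passed an adjusted p under 0.05. The comparison sets 2 monkeys against 2, for which an exact permutation test cannot go below p = 0.333. Together the 8 genes had 98.3 and 137 counts per 100 CD3 chain counts in 13EP12 and 13EP8, and 134 and 127 in 13EP5 and 15CP1. These ratios overlapped between the cohorts. In Cohort B monkey 15CP6, which had 357 CD3 chain counts, 173 of them on CD3E and 143 on CD247, the same ratio was 9.80, and CD28 was the only one of the 8 genes detected.

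Some zeros in the other 6 libraries can be set beside their depth, as a description only, since the deep libraries used as the reference are those where these genes were high. The lowest level of a gene among the deep libraries, on counts without the MTRNR2L genes, was scaled to the depth of each shallower library. CD2 scaled in this way to 49.7 counts in 15CP6 and 18.1 in 14HP33, and had 0 in both. CD28 scaled to 27.6 counts in 14HP33, where it had 0, and to 17.8 in 14HP26, where it had 42. CD5 scaled to 0.750 counts in 15CP4, where it had 11. Of 36 such values over 6 genes, 20 scaled to more than 3 counts. Among these 20, 19 had fewer counts than the scaled level, 15 of them 0. In Cohort B the shallow libraries come from the monkeys with listed rejection, and the part of rejection in their low counts was not tested.

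Levels can be compared between genes only per length, for which the deposited FPKM were read within a library. In 15CP1, CD2 had 94.8 FPKM, CD40LG 56.0, CD28 51.1, CD27 31.8, ICOS 22.7 and CD5 4.41. In 13EP8 the order was CD2 at 131 FPKM, CD27 at 81.2, CD28 at 51.9, CD40LG at 9.71 and CD5 at 5.48, with ICOS listed at 0. In 13EP12, CD28 led with 60.0 FPKM, followed by CD2 at 35.9, CD40LG at 32.4, ICOS at 19.0 and CD5 at 4.14, with CD27 listed at 0. CD5 was the lowest of the genes above 0 in each of these libraries, and the order of FPKM above it changed from library to library. FPKM per CPM of unscaled totals also changed for a single gene. For CD40LG it was 0.483 in 13EP12, 0.152 in 13EP8 and 0.611 in 15CP1. The changing order therefore cannot be read as a difference between monkeys.

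FPKM and counts diverged for some values. Of the 33 values above 3 counts, 10 were listed at 0 FPKM, among them ICOS in 13EP8 with 62 counts and CD27 in 13EP12 with 21. In 13EP5 the FPKM stood high against the counts for genes in general: the median FPKM per unadjusted CPM over 2607 genes was 1.68 there, against 0.211 to 0.251 in the other deep libraries. In that library CD2 had 645 FPKM, ICOS 385, CD28 278, CD40LG 140, CD27 50.3 and CD5 39.4, values that are not on the scale of the other monkeys. The limma test sets these values against each other all the same, so its result carries that difference in scale. With limma on log2(FPKM + 1), 6 of the 8 genes passed the filter of a mean of 1 FPKM and 0 of 10307 genes were called at an adjusted p under 0.05, with 29 (0.281%) at an unadjusted p under 0.05.

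**Figure D4:**
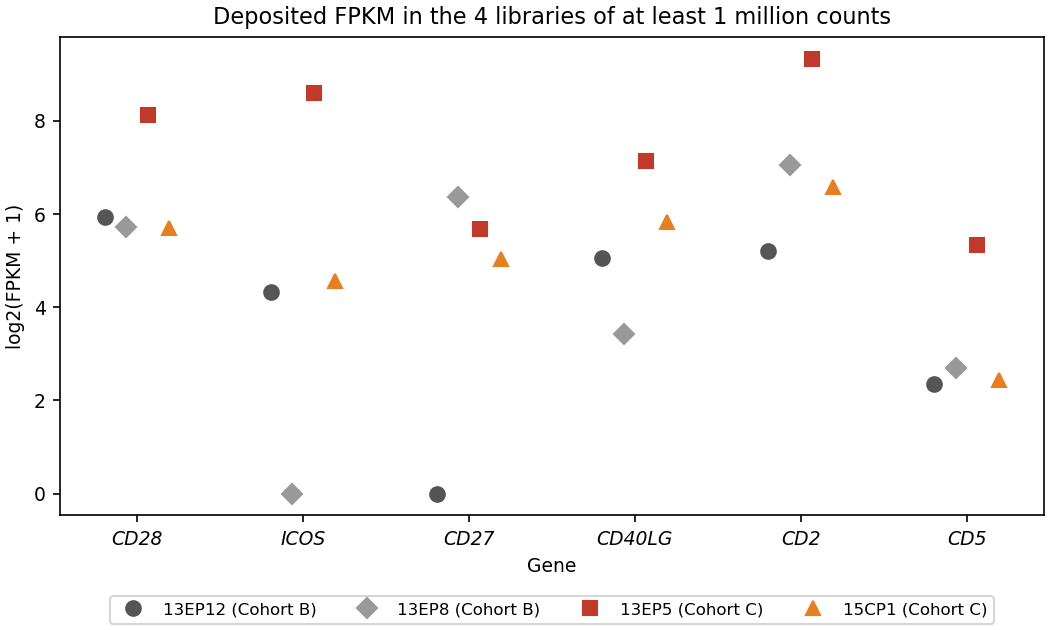
Deposited FPKM, as log2(FPKM + 1), of 6 genes in the 4 deep libraries. Points of 13EP5 (squares) lie above the others for every gene but CD27, in the library whose FPKM per count are high throughout, and ICOS in 13EP8 and CD27 in 13EP12 are listed at 0.

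The ligands and partners of these receptors ranged widely in level. Of 10 partner genes (CD80, CD86, ICOSLG, CD70, CD40, TNFSF4, TNFSF9, CD58, CD48 and CD72), 5 had the 10 counts needed for the test. None was called. CD80 alone fell under an unadjusted p of 0.05, with 40 and 14 counts in 14HP26 and 14HP31 and 2 in 13EP8 of Cohort B, 7 in 13EP5 and 80 in 15CP1 of Cohort C, and 0 elsewhere. Its log2 fold change was -5.05 (standard error 2.39, edgeR adjusted p = 0.199). The counts of the shallow libraries 14HP26 and 14HP31 weighed as 235 and 552 CPM. In the deep libraries the order was the opposite, with 0 and 1.52 CPM in Cohort B and 2.18 and 16.5 CPM in Cohort C. The median log2 fold change of the 5 tested partner genes was -2.25, against 0.16 over all genes tested. Over the deep libraries it was -0.41 against 0.32. CD86 had 121 counts in 13EP12 and 29 in 13EP8, and 32 in 13EP5 and 69 in 15CP1, in libraries that also held monocyte and B cell markers. CD58, which binds CD2, had 28 counts in 13EP8, 83 in 15CP6, 50 in 13EP5, 96 in 15CP1 and 0 elsewhere (log2 fold change -2.41, edgeR adjusted p = 0.755). CD48, also a partner of CD2 and named here after its values were seen, was the most counted of the 10, with 267 counts in 13EP12, 287 in 13EP8, 1 in 14HP31, 208 in 13EP5, 1243 in 15CP1 and 0 elsewhere. Its log2 fold change was -0.60 (standard error 2.0, edgeR adjusted p = 0.9998).

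Of 36 signalling genes downstream of the receptors, all were tested and 0 were called by edgeR, where 6.43% of all genes tested were. Their log2 fold changes were positive for 20 and negative for 16, with a median of 0.25 against 0.16 over all genes. One of the 36 had an unadjusted p under 0.05, where 20.6% of all genes did. It was SIVA1, an adaptor that binds the tail of CD27, with 8 counts in 13EP5, 14 in 15CP1 and 0 elsewhere (edgeR adjusted p = 0.182). The next positive one was CD2AP, a scaffold that binds the tail of CD2, which had 60 counts in 13EP12, 77 in 13EP8, 397 in 13EP5, 64 in 14HP24, 380 in 15CP1 and 0 elsewhere. Its log2 fold change was 2.27 (standard error 2.11, edgeR adjusted p = 0.781). The negative ones with the smallest p were the TRAF adaptors TRAF3, at a log2 fold change of -2.04 (standard error 2.11, edgeR adjusted p = 0.852), and TRAF6, with -1.84 (standard error 2.11, edgeR adjusted p = 0.909). In the deep libraries TRAF3 had 181 and 71 counts in Cohort B and 123 and 238 in Cohort C. Scaled to depth, these were 157 and 54.1 CPM in Cohort B against 38.2 and 49.2 CPM in Cohort C.

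Of 16 other costimulatory or adhesion receptors, 14 were tested and 0 called, where 6.43% of all genes tested were. Their median log2 fold change was -0.65 over all libraries and 0.22 over the deep ones, against 0.16 and 0.32 over all genes. An unadjusted edgeR p under 0.05 was found for 2 of the 14 and for 20.6% of all genes. CD82, a tetraspanin, had 43 counts in 13EP5, 49 in 15CP1 and 0 in the other 8 (edgeR adjusted p = 0.141). TNFRSF18 (GITR), a TNF receptor family member of regulatory T cells, had 8 counts in 13EP5, 9 in 15CP1 and 0 in the other 8 (edgeR adjusted p = 0.201). On the negative side SELPLG, an adhesion ligand for selectins, had a log2 fold change of -2.19 (edgeR adjusted p = 0.799) and SLAMF6, a receptor that binds its own kind on other lymphocytes, one of -1.66 (edgeR adjusted p = 0.947), with standard errors of 2.08 and 2.10. CTLA4, which shares CD80 and CD86 with CD28 and restrains T cells, had 35 counts in 13EP12, 139 in 13EP8 and 22 in 15CP6 of Cohort B, 228 in 13EP5 and 669 in 15CP1 of Cohort C, and 0 in the remaining 5. Its log2 fold change was 0.16 (standard error 2.04, edgeR adjusted p = 0.9998), and the cohorts overlapped.

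The genes whose log2(CPM + 1) followed each receptor most closely over the 10 libraries were sought among 8273 genes detected in at least 4 libraries. For CD28 they were NUP210 (Pearson r = 0.991), UBR3 and CLK1, and for ICOS ZNF131, SLC25A5 and CHMP5. For CD27 they were MAPK8, PARP15 and RNF168, for CD40LG CEP57 (0.998), PBLD and EBP, for CD2 CDKN1B, FAM193B and JARID2, and for CD5 ZC3H11A (0.988), TMEM109 and MYL12B. TNFRSF4 and TNFRSF9 were detected in too few libraries for such a comparison. The genes of each pair share the 10 libraries, most of their zeros and their depth, so the coefficients are a description only.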

How the data were processed

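Tr1 cells of 10 monkeys were sequenced on an Illumina HiSeq, 1 library per monkey, so replicates are separate animals. Per the labels and methods, the authors checked reads with FastQC, aligned these macaque reads with HISAT2 2.0.2 against human sequence (hg38), and deposited raw counts per gene symbol. The authors also deposited FPKM from Cuffdiff 2.2.1. Options on strand and on reads with several matches are not given in the sources used here, and reads that differ from the human sequence may be lost unequally between genes. Counts covered 26484 genes and FPKM 26381.

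The cohorts were compared with the quasi-likelihood test of edgeR 4.0.16 under R 4.3.3, after TMM scaling and with no covariate, over the 14168 genes with at least 10 summed counts. Calls needed an unadjusted p under 0.01 and 1.5-fold, or separately an adjusted p under 0.05. Log2(FPKM + 1) was tested with limma 3.58.1 (mean FPKM of at least 1, adjusted p under 0.05, 1.4-fold). Two-sided exact permutation tests used log2(CPM + 1). On simulated data with known changes, edgeR recovered most changed genes at a low dispersion and none by adjusted p at a dispersion close to that of these libraries, so that a missed threshold here says little. Intervals and floors (3 counts) cover counting error only. All 8 genes were reported whatever their values, as were CTLA4 and, of 3 lists of partners, signalling genes and other receptors, up to 2 members in each direction with the smallest unadjusted p, besides CD40, CD80 and CD86; the 3 most alike genes were named for each gene detected in at least 4 libraries. The 8 genes and the lists were chosen with earlier results of these data known. Alternatives were DESeq2 1.42.0, edgeR's exact test, other scalings and filters, the label numbers as a block, an index suffix as a covariate, and libraries left out. The limit of 1000000 counts was chosen after the data had been seen. No sequences were used here.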

Additional observations from a re-analysis of the deposited data

Results flagged for a closer look

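Each of the 8 genes was examined in each cohort for a monkey far from the other 4, which makes 16 groups, of which 4 held one. Chance gives such a monkey in about 1 in 20 groups of spread values, a rate that does not apply where all other values are 0. In Cohort B, CD28 was lowest in 14HP31, the library of 6076 counts, with log2(CPM + 1) at 0.0 and 0.767 of the cohort's range between it and the next monkey. In Cohort C, CD5 was lowest in 14HP24 at 0.0, the gap being 0.957 of the range. The other 4 monkeys lay close together with TMM scaling only, and ranged from 4.13 to 165 CPM of unscaled totals. TNFRSF4 was highest in Cohort C monkey 15CP1 at 2.85, and TNFRSF9 in Cohort B monkey 14HP26 at 4.22, both with the other 4 monkeys of the cohort at 0, so that the gap is by construction the whole range, 1. The 4.22 of TNFRSF9 rests on 3 counts.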

How the results depend on the processing

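No alternative called any of the 8 genes in edgeR or DESeq2. The number of genes called among all genes moved from 911 to 563 with size factors on positive counts. It was 10 with edgeR's filterByExpr (3 of the 8 genes tested), 341 with edgeR's exact test and 22 with DESeq2. With the presence of the label suffix as a covariate it was 98. It was 326 in libraries of at least 100000 counts, and 117 in those of at least 1000000 (124 with library size only). It ranged from 76 (without 13EP5) to 698 with each library left out in turn. The median log2 fold change of all genes was 0.16, 0.34 with size factors on positive counts and -0.10 with library size only. The label numbers did not pair the monkeys, with correlations of same-numbered libraries from -0.43 to 0.38 and 1 of 10 libraries closest to its own number; with the number as a replicate block edgeR called 0 genes (9 had an unadjusted p under 0.05), and the log2 fold change of TNFRSF9 was 0.72. Signs of member fold changes turned in 23 of 170 alternatives in edgeR. TNFRSF9 turned to 0.35 with size factors on positive counts, 0.022 with DESeq2, and 6.47 or 6.52 in the deep libraries (TMM or library size), where Cohort B had no count. CD40LG was -0.050 with library size only and -0.32 with the suffix; CD2 was -0.055 with library size only, -0.18 with filterByExpr, and -0.15 or -0.10 in the deep libraries. With each library left out, log2 fold changes ran from -0.24 to 2.03 for ICOS, -1.98 to 0.93 for CD27, -0.0039 to 1.06 for CD40LG, -0.88 to 4.58 for TNFRSF9 and -0.66 to 0.86 for CD2. Permutation differences turned for CD28 (0.68) and CD27 (1.4) per 1000 CD3 chain counts and for TNFRSF9 (-0.11) with library size only. With each library left out, these differences ran from -0.73 to 1.45 for ICOS, -1.06 to 0.80 for CD27, -0.44 to 0.89 for TNFRSF9, -0.0034 to 2.09 for CD2 and 2.35 to 4.04 for CD5, whose unadjusted p fell under 0.05 without 14HP24 only. The median log2 fold change of the ligands moved to -1.05 with filterByExpr (1 gene tested), -0.53 without a filter (10 tested), -0.41 or -0.40 in the deep libraries, and -3.11 to -0.51 with each library left out, and with library size only 1 ligand was called against 0. The causes were not tested.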
